A study of Homo sapiens with 44 samples.

Results

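The CDK inhibitors and the G-type cyclins were followed in IMR5/75, a human neuroblastoma cell line with amplified MYCN that carries a tetracycline-inducible short hairpin RNA against MYCN. The 9 genes were taken by name from the count table, as 9 of its 23367 gene rows: the CIP/KIP inhibitors CDKN1A, CDKN1B and CDKN1C, the INK4 inhibitors CDKN2A, CDKN2B, CDKN2C and CDKN2D, and the cyclins CCNG1 and CCNG2. The set was chosen by function, and some of its genes were selected on their measured difference between the arms at 0 to 14 h, so that difference is given here as a description, without a test. Of the 9, 8 passed the filter on low counts. CDKN2B did not.

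All cells were held at the border of G1 and S phase with thymidine for 18 h and collected after washout at 0, 3, 6, 8, 10, 12, 14, 16, 18, 20 and 22 h. The 2 arms were cells with tetracycline (Tet plus, hairpin induced) and the same line without it (Tet minus). At each time each arm had 2 libraries of total RNA depleted of ribosomal RNA, stated to be biological replicates, which makes 22 groups and 44 libraries. Every group carries the hairpin construct and had the thymidine block, and no library had the drug without this hairpin, so that effects of the drug, of the hairpin on other transcripts and of lowered MYCN cannot be told apart. How much tetracycline was used, and for how long, is not given in the sources used here.

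Cyclin-dependent kinases (CDKs) drive the cell through its cycle when bound to cyclins. The CIP/KIP proteins p21, p27 and p57, made from CDKN1A, CDKN1B and CDKN1C, bind cyclin-CDK complexes, chiefly those with CDK2. The INK4 proteins p16, p15, p18 and p19, made from CDKN2A, CDKN2B, CDKN2C and CDKN2D, bind CDK4 and CDK6 and keep D-type cyclins from them. Cyclins G1 and G2 bind B' subunits of the phosphatase PP2A. CDKN1A and CCNG1 are textbook targets of p53, CDKN1B and CCNG2 of FOXO factors, and MYC proteins are known to repress CDKN1A through the partner protein ZBTB17.

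The start regions of the members were searched for the E-box that MYC proteins bind together with MAX, since the study lowered a MYC protein. RefSeq start sites on GRCh38.p14 were at hand for 8 of the 9 genes, with 12 start sites in all. CDKN1C was not among them. In the 250 bases before the start, the letters CACGTG, which read the same on both strands, stood at 3 of the 12 start sites, in CCNG2 and CDKN2C. Among all 35116 promoters of the same length, 6.34% held them. The matches are shown with the bases around them, 30 bases each, all on the plus strand, 5′ to 3′, with the E-box in capitals. The E-box began 30 bases before the start in CCNG2 (chr4:77157165-77157194), and 220 and 69 bases before a pair of the 3 starts of CDKN2C (chr1:50960513-50960542 and chr1:50970164-50970193).
CCNG2: tccgcggggagtCACGTGccccgccccctt
CDKN2C, 220 bases before a start: gattgtgcacctCACGTGgttagtcacaca
CDKN2C, 69 bases before a start: ttgctgaataatCACGTGtgaatcgagggg
The forkhead letters TGTTTAC, the core that FOXO factors read, and TTTGAA, the letters of the CHR element of many G2/M genes, were searched on both strands and stood in none of the 12 windows, against 2.98% and 13.3% of all promoters. No match overlapped a match to another motif. A match or its absence describes the letters in these windows, and binding was not measured.

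The knockdown target MYCN differed by a small margin between the arms. At 0 to 14 h it ranged from 938 to 1213 (median 1002) CPM (read counts scaled to the TMM library size) in Tet plus and from 969.7 to 1479 (median 1228) CPM in Tet minus libraries. It fell by 0.27 on the log2 scale (SE 0.0460, adjusted p = 2.71e-05), and the arms did not overlap at 6 of the 7 times, Tet plus being lower. The exception was 0 h, where MYCN differed by -0.08 (SE 0.1215). At 0 h the 8 measured members ranged from -0.24 for CDKN2A to 1.05 for CDKN1C, and the part of MYCN in this was not tested. At 16 to 22 h MYCN ranged from 870.6 to 1242 CPM in Tet plus and from 1063 to 1417 CPM in Tet minus, a log2 difference of -0.26 (SE 0.0608, adjusted p = 0.000787). Gene counts per library were 10.91 to 25.31 M (mega, median 20.05 M). The 8 Tet plus libraries at 16 to 22 h stood apart, with 10.91 to 19.8 M counts, lanes unlike those of the Tet minus libraries of the same hours, and titles written in another way. ERCC spike-in RNA took 0.0543% to 0.376% of their counts, against 1.13% to 3.43% in Tet minus, and small nucleolar RNAs took 0.935% to 2.41% against 0.289% to 0.713%. Arm and the change of lanes and title form therefore cannot be told apart at 16 to 22 h, and the 2 periods are kept separate. Of 13 noradrenergic neuroblastoma markers, 12 passed the filter, while TH, a defining marker, did not exceed 0.206 CPM in any library. The 13 summed to 1623 to 2949 CPM. They stood higher in Tet plus, with medians of 2498 against 2055 CPM at 0 to 14 h and 2506 against 1966 CPM at 16 to 22 h. In each period 6 of the 12 rose and none fell, and the part of these markers in the results for the CDK inhibitors was not tested. Mesenchymal and Schwann-like markers summed to 233.5 to 516.3 CPM, with 2 of 9 higher and 1 lower at 0 to 14 h and 3 higher at 16 to 22 h. Of all genes, 20.1% were higher and 21.3% lower at 0 to 14 h, and 26.3% and 26.8% at 16 to 22 h. COL1A2, S100B and SOX10 were at or near 0. The 8 epithelial markers summed to 0.675 to 4.74 CPM and the 5 leukocyte markers to 0.239 to 1.45 CPM, with KRT14, KRT19 and CD3E at 0 in all libraries.

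The members differed widely in level. Per kilobase of exon in Tet minus libraries at 0 to 14 h, CDKN1A and CCNG1 were the highest at 69.9 and 62.8 CPM per kilobase, and CDKN1B and CDKN2C followed at 34.9 and 21.1. CDKN2D stood at 5.12, CDKN1C at 2.41, CCNG2 at 2.33 and CDKN2A at 0.901 CPM per kilobase. The lengths came from another annotation than the authors' own, so these levels are approximate. Neighbours in this order overlapped across their 14 libraries for CDKN1A (46.8 to 119.7) and CCNG1 (46.3 to 89.4), for CCNG1 and CDKN1B (23.1 to 50.2), for CDKN1B and CDKN2C (12.6 to 29.5), for CDKN2D (1.73 to 9.83) and CDKN1C (1.36 to 3.43), and for CDKN1C and CCNG2 (1.46 to 3.43 CPM per kilobase). CDKN2C lay above CDKN2D, and CCNG2 above CDKN2A (0.544 to 1.17), without overlap. CDKN2B was nearly silent. It had 0 to 15 counts in each library and 0 counts in Tet minus at 3 h (replicate 1) and Tet plus at 22 h (replicate 1), and its highest level, 0.661 CPM, was in Tet plus at 8 h. The CDKN2A row pools p16 with the overlapping ARF transcript, CDKN2B overlaps an antisense RNA, and the strand setting of the counting is not given in the sources used here.

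At 0 to 14 h, 7 of the 8 measured members were higher in Tet plus cells and CDKN2A was lower. The median difference of the 8 was 0.54 on the log2 scale, against 0.01 over all genes tested, and 51.5% of all genes were above 0. CDKN1A, CDKN1C and CCNG2 were the members whose libraries separated by arm at all 7 times, a pattern held by 3.18% of the 14534 genes. CDKN1B and CDKN2C separated at 6 times, and 6.43% of genes did so at 6 or 7. These genes were picked with this difference known, so nothing is read from the counts. In bulk RNA, fewer cells in a phase of the cycle and less RNA per cell cannot be told apart.

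Among the CIP/KIP inhibitors, CDKN1A (p21) was the most abundant. Its Tet minus libraries, replicates 1 and 2 in turn, held 265 and 247 CPM at 0 h, 300.4 and 263 at 3 h, 145 and 129.6 at 6 h, 122 and 119.6 at 8 h, 128 and 118 at 10 h, 165 and 123 at 12 h, and 183 and 145 at 14 h. The Tet plus libraries held 459 and 352 CPM at 0 h, 409 and 346 at 3 h, 199 and 206 at 6 h, 213 and 299 at 8 h, 248 and 217 at 10 h, 266 and 189 at 12 h, and 299 and 213 at 14 h. Every Tet plus pair lay above the Tet minus pair of its time, and in both arms all libraries from 6 h on lay below those of 0 and 3 h. The mean log2 difference was 0.71 (SE 0.0681), 1.63-fold. By time it was smallest at 3 h (0.42) and largest at 8 h (1.08).

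CDKN1C (p57) was scarce in Tet minus cells. Its Tet minus libraries held 6.30 and 5.82 CPM at 0 h, 6.67 and 5.94 at 3 h, 4.78 and 4.01 at 6 h, 3.72 and 2.63 at 8 h, 4.42 and 3.65 at 10 h, 5.77 and 2.96 at 12 h, and 5.02 and 3.88 at 14 h. The Tet plus libraries held 16.2 and 8.81 CPM at 0 h, 12.3 and 8.18 at 3 h, 9.92 and 6.72 at 6 h, 11.2 and 10.9 at 8 h, 10.7 and 6.31 at 10 h, 12.8 and 7.37 at 12 h, and 13.2 and 7.16 at 14 h. The arms did not overlap at any time, and the log2 difference was 1.14 (SE 0.150), 2.20-fold. Replicate 1 lay above replicate 2 in 22 of the 22 groups, so the 2 replicate series differ in the level of this gene in both arms. The like count was 19 for CDKN2D, 18 for CDKN1A, 15 for CDKN2C, 14 for CDKN2A and 13 for CCNG2. It was 9 for CDKN2B, 6 for CDKN1B and 4 for CCNG1, so such an order is not particular to CDKN1C.

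CDKN1B (p27), whose protein is best known to be set by its breakdown, differed less between the arms. It ranged from 61.3 to 133 CPM (median 82.7) in Tet minus and from 75.7 to 152 CPM (median 103) in Tet plus libraries. The arms separated at every time but 6 h, where Tet minus held 121 and 133 CPM and Tet plus 129 and 104. The mean log2 difference was 0.25 (SE 0.0484).

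The INK4 inhibitors did not go one way. CDKN2C (p18) ranged from 41.7 to 97.9 CPM (median 67.0) in Tet minus and from 49.5 to 118 CPM (median 99.2) in Tet plus, a log2 difference of 0.37 (SE 0.0495), and the arms overlapped only at 6 h. CDKN2D (p19) had a larger difference of 0.79 (SE 0.149) with more spread between replicates, from 2.60 to 14.8 CPM (median 6.39) against 5.71 to 23.0 CPM (median 11.0), and the arms separated at 3 of 7 times, the 10, 12 and 14 h samples. CDKN2A (p16 and ARF) was the member that went the other way, from 1.72 to 3.69 CPM (median 2.93) in Tet minus and 1.44 to 2.91 CPM (median 2.15) in Tet plus, a difference of -0.41 (SE 0.107) on the log2 scale with both Tet plus libraries lower at 4 of 7 times. It rests on 25 to 84 counts per library. CDKN2B had 92 counts over the 14 Tet plus and 48 over the 14 Tet minus libraries of 0 to 14 h, and the arms separated at 3 of 7 times.

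The 2 G cyclins differed from each other. CCNG2 was 2.22-fold higher in Tet plus, a log2 difference of 1.15 (SE 0.0642). Its Tet minus libraries held 21.6 and 18.0 CPM at 0 h, 15.1 and 16.7 at 3 h, 18.4 and 14.5 at 6 h, 17.3 and 13.2 at 8 h, 11.7 and 9.18 at 10 h, 12.2 and 11.8 at 12 h, and 11.4 and 14.3 at 14 h. The Tet plus libraries held 32.6 and 31.2 CPM at 0 h, 30.03 and 32.5 at 3 h, 39.7 and 46.8 at 6 h, 40.9 and 32.1 at 8 h, 28.5 and 24.3 at 10 h, 25.3 and 29.1 at 12 h, and 26.7 and 33.1 at 14 h. The lowest Tet plus value, 24.3 CPM, exceeded the highest Tet minus value, 21.6 CPM, across all 28 libraries. CCNG1 ranged from 114 to 221 CPM (median 153) in Tet minus and from 147 to 218 CPM (median 171) in Tet plus, with overlap at 5 of 7 times and a log2 difference of 0.20 (SE 0.0697).

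**Figure D1:**
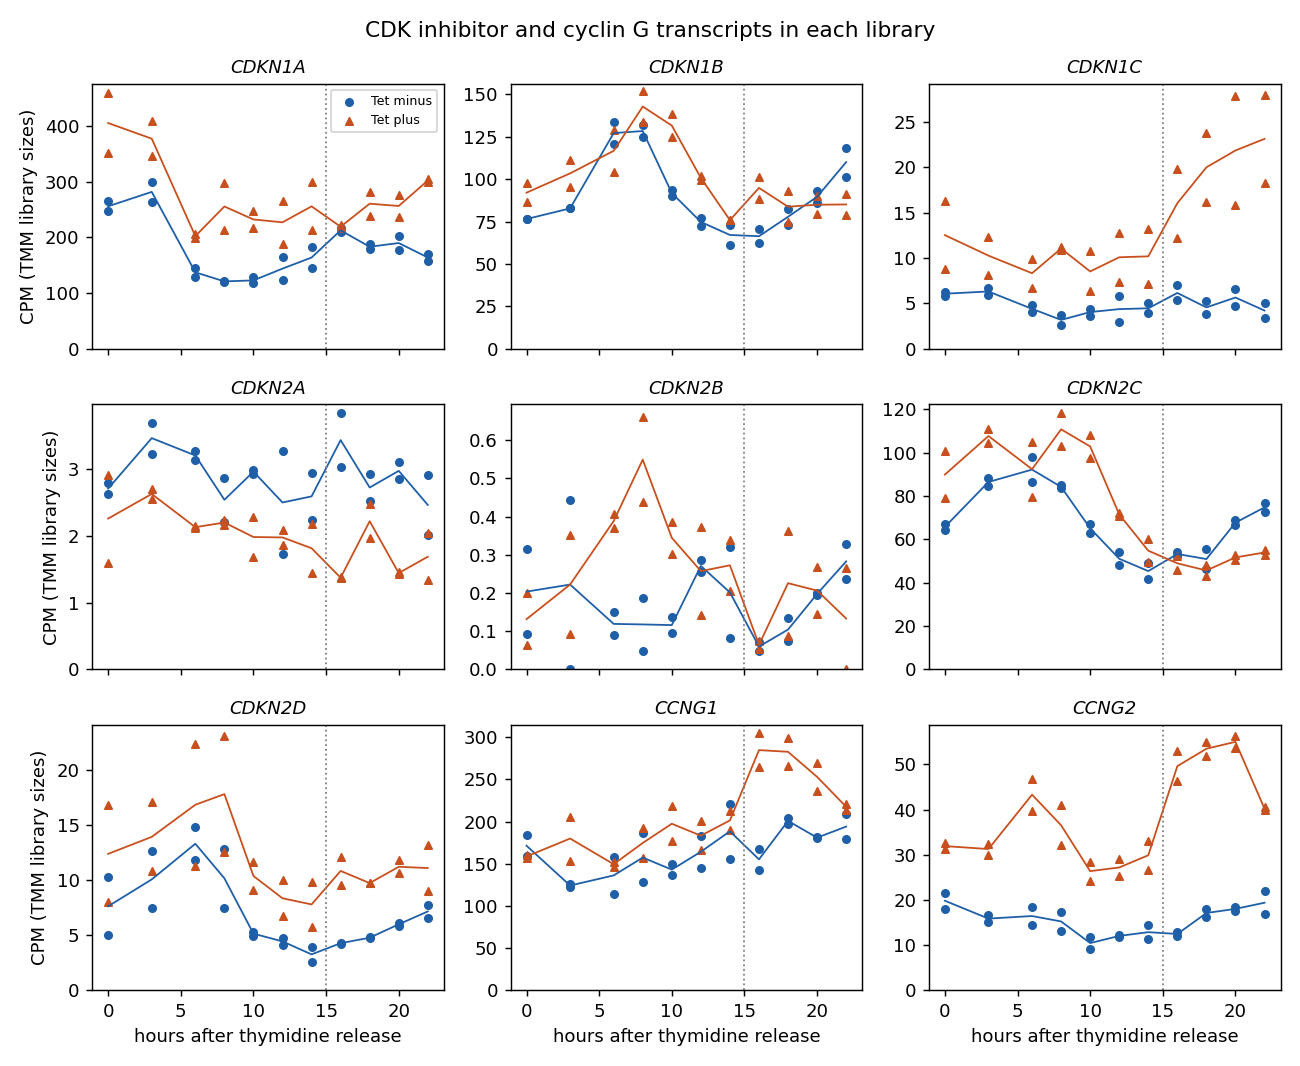
Library-scaled counts (CPM, linear axes from 0) of the 9 genes against hours after thymidine release, with a point for each library, a line through the group means, and a dotted line between 14 and 16 h where the Tet plus libraries change title form and lanes. CCNG2 and CDKN1C lie higher in Tet plus at all 11 times, while both CDKN2C libraries of Tet plus lie above both of Tet minus at 6 of 7 times up to 14 h, and the CDKN2C means lie lower in Tet plus at 4 of 4 times from 16 h.

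At 16 to 22 h, CDKN1C, CCNG2, CDKN2D, CCNG1 and CDKN1A were higher in the Tet plus libraries and CDKN2A and CDKN2C lower, 7 of 8 members past an adjusted p of 0.05 by the quasi-likelihood test of edgeR, adjusted after Benjamini and Hochberg over all genes tested, as is every adjusted p given here. Of all genes 53.1% passed as well, and a count of members near that level is no result about them. Among the members 5 were called higher and 2 lower, against 26.3% and 26.8% of all genes, with a median of 0.49 for the members and 0.02 for all genes. Some members were selected on the arm difference at 0 to 14 h, and the same line and arms continue here. Genes selected so can be expected to differ late as well. Nothing is therefore read from the late counts, separations or medians of the members, and each adjusted p concerns its gene alone.

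CDKN1C had the widest difference, 1.99 (SE 0.200, adjusted p = 4.74e-09), 3.96-fold. Its Tet plus libraries held 19.9 and 12.2 CPM at 16 h, 23.8 and 16.2 at 18 h, 27.8 and 15.9 at 20 h, and 27.95 and 18.3 at 22 h. Tet minus held 6.97 and 5.32 CPM at 16 h, 5.24 and 3.87 at 18 h, 6.54 and 4.75 at 20 h, and 4.99 and 3.42 at 22 h. Even the lowest Tet plus library was above the highest Tet minus library. CCNG2 was 2.98-fold higher (log2 difference 1.58, SE 0.0855, adjusted p = 3.90e-14), at 39.9 to 56.3 CPM (median 52.4) against 12.0 to 22.0 CPM (median 17.2). The arms of CCNG2 did not overlap at any late time.

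CDKN2D was higher by 0.98 (SE 0.202, adjusted p = 0.000207), at 8.98 to 13.2 CPM (median 10.2) against 4.22 to 7.77 CPM (median 5.32). CCNG1 was higher by 0.50 (SE 0.0924, adjusted p = 4.96e-05), at 214 to 305 CPM (median 265) against 143 to 209 CPM (median 181). CDKN1A was higher by 0.47 (SE 0.0899, adjusted p = 9.11e-05), at 216 to 305 CPM (median 258) against 158 to 216 CPM (median 183). These 5 genes had both Tet plus libraries above both Tet minus libraries at 4 of 4 times, as 10.1% of all genes did, although for CDKN1A at 16 h the gap was under 1 CPM (222 and 216 against 216 and 209 CPM).

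CDKN2A was lower by a log2 difference of -0.80 (SE 0.151, adjusted p = 6.62e-05), at 1.33 to 2.47 CPM (median 1.44) against 2.01 to 3.83 CPM (median 2.91), from 15 to 28 counts in each Tet plus library. CDKN2C was lower by a log2 difference of -0.28 (SE 0.0663, adjusted p = 0.000728), at 43.1 to 55.0 CPM (median 51.3) against 46.4 to 76.6 CPM (median 61.0). For each of the pair, the Tet plus libraries lay below at 3 of 4 times. CDKN1B had a difference of 0.04 (SE 0.0644, adjusted p = 0.596). That average hides a crossing, since its single-time difference was 0.52 (adjusted p = 0.00405) at 16 h and -0.37 (adjusted p = 0.0320) at 22 h. Scaled to the ERCC spike-ins instead of gene counts, the late difference of all genes shifted to a median of 4.43 on the log2 scale, and CDKN2A and CDKN2C then stood at 3.65 and 4.13, below that median.

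**Figure D2:**
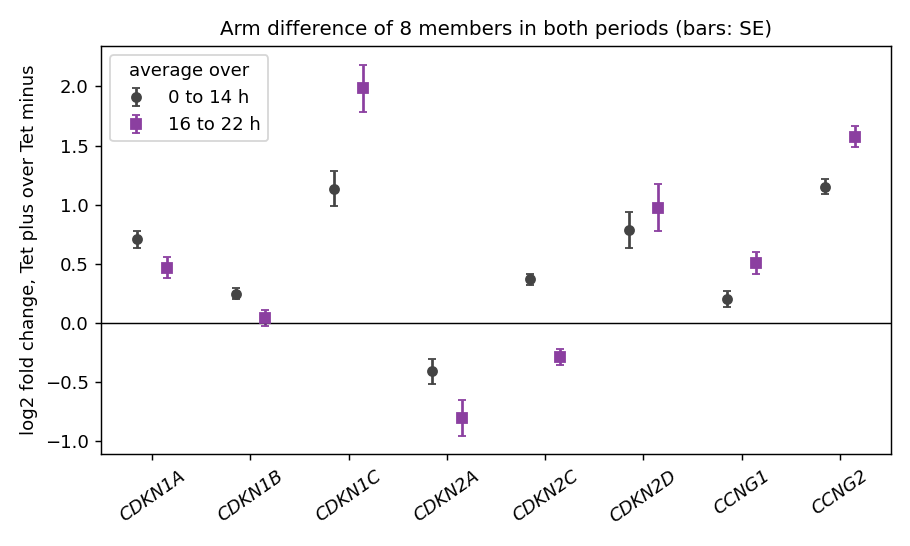
Difference between the arms (log2 fold change, Tet plus over Tet minus, y axis) of the 8 measured genes, averaged over 0 to 14 h (circles) and over 16 to 22 h (squares), with bars of 1 SE. CDKN1C moves from 1.14 to 1.99 and CDKN2C from 0.37 to -0.28, on opposite sides of 0.

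The arm difference at 16 to 22 h was also set against that at 0 to 14 h, in a comparison added after seeing the data. Since 1 of its terms is the difference on which some members were selected, the values are a description and no test is given for the members. The late difference exceeded the early one by 0.85 for CDKN1C (SE 0.247) and by 0.42 for CCNG2 (SE 0.105). For CDKN2C the late value minus the early one was -0.65 (SE 0.0827), from higher to lower in Tet plus. Of all genes, 20.6% were past the threshold in this comparison, and 31.7% with the replicate number as a block. Nothing is read from these shares for the members, and the comparison spans the change of lanes and title form.

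Time by time the late differences ran in different directions. CDKN1C went from 1.39 at 16 h to 2.46 at 22 h and CDKN1A from 0.04 to 0.88, while CCNG2 went from 2.00 to 1.05 and CCNG1 from 0.88 to 0.16. At 16 h 5 members were called higher and 1 lower, with 27% of all genes called, and at 18 h 3 higher and none lower (18.7%). At 20 h 2 were higher and 2 lower (23.9%), and at 22 h 3 higher and 2 lower (28.4%). The selection on 0 to 14 h carries over to these counts, and nothing is read from them. CDKN1C and CCNG2 were among those called higher at each of the 4 times. MYCN itself stood at -0.59 at 16 h (SE 0.122, adjusted p = 0.000826) and at -0.03 at 22 h (SE 0.122, adjusted p = 0.889), where the arms overlapped. Its part in the late differences of the members was not tested.

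**Figure D3:**
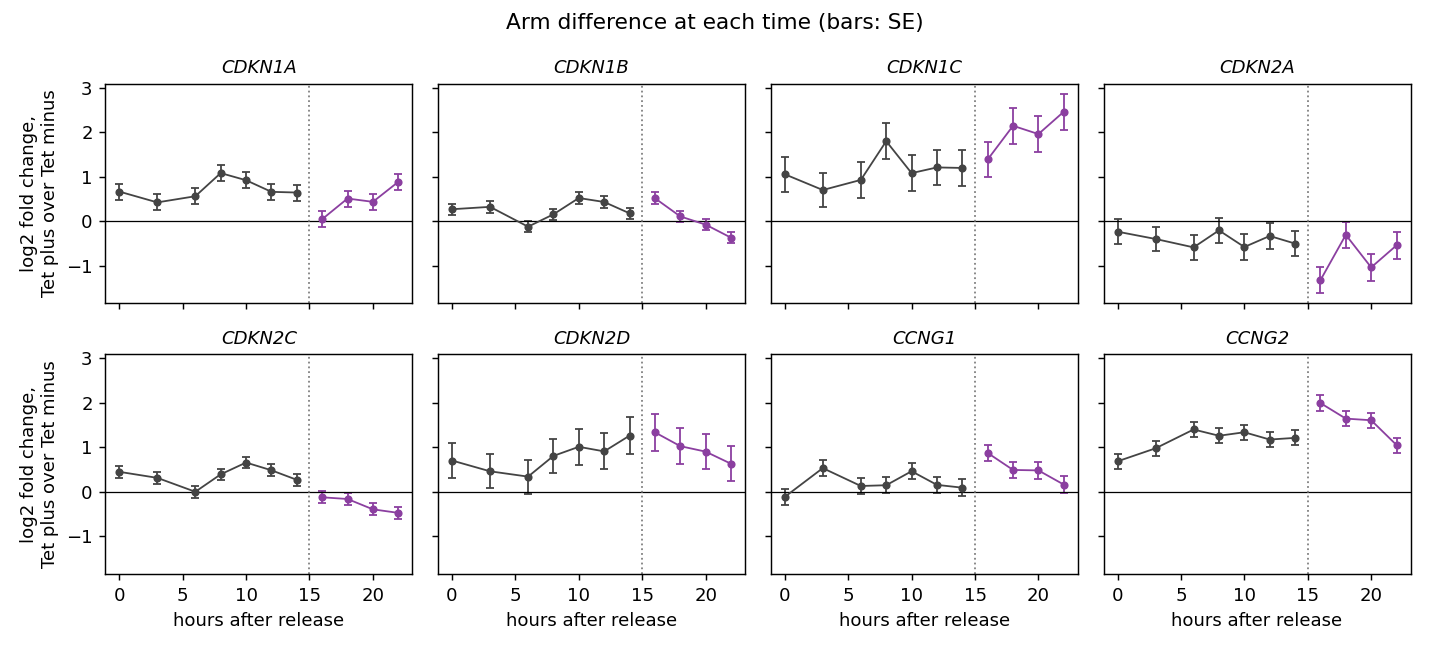
Difference between the arms (log2 fold change, Tet plus over Tet minus, y axis) at each of the 11 times for the 8 measured genes, with bars of 1 SE and a dotted line between 14 and 16 h. CDKN1C lies at 1.39 at 16 h and 2.46 at 22 h, and CDKN1B goes from 0.52 to -0.37 over the same times.

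The course after release was tested within each arm from 0 to 14 h. CCNE2, the E-type cyclin of the G1/S border, averaged 88.3 CPM at 0 h and 18.9 CPM at 8 h in Tet minus and was back at 55.1 CPM at 14 h, whereas in Tet plus it averaged 20.0 CPM at 14 h. CCNB1, the mitotic cyclin, was highest at 8 h in Tet minus (648.5 CPM) and at 10 h in Tet plus (614 CPM). At 6 h its libraries held 372 to 436 CPM in Tet minus and 230 to 307 CPM in Tet plus, while at 10 h the arms overlapped. For CCNE2 the arms overlapped at 8 h, and at 12 h they held 32.2 to 38.2 against 16.7 to 17.3 CPM. At 22 h CCNB1 averaged 325 CPM in Tet minus and 119.8 CPM in Tet plus. The arms thus differed in these phase markers at some times within 0 to 14 h as well as late in the series. Their part in the differences of the CDK inhibitors and G cyclins was not tested.

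In Tet minus cells 5 of 8 members changed over 0 to 14 h, where 14.5% of all genes did: CDKN1A (adjusted p = 7.63e-06), CDKN1B (4.30e-06), CDKN2C (4.58e-06), CDKN2D (0.00431) and CCNG2 (0.00422). In Tet plus cells 4 of 8 changed, where 10.4% of genes did: CDKN1A (adjusted p = 0.000528), CDKN1B (0.000121), CDKN2C (1.93e-05) and CCNG2 (0.0274). The call for CCNG2 in Tet plus was lost when only the libraries of 0 to 14 h were fitted (adjusted p = 0.111), and without any 1 of 3 libraries, which were Tet plus 6 h replicate 2 (0.205), 10 h replicate 2 (0.0729) and 12 h replicate 1 (0.0590). With replicate number as a block, CDKN1C (0.00259) and CCNG1 (0.00524) were added in Tet minus, where 34.3% of genes passed, and CDKN2D (0.00109) in Tet plus, where 25.9% did. The pairing check compared the arms at the same time, and did not examine whether replicate numbers pair the times within an arm. CDKN2A passed in neither arm. Scaled to the ERCC spike-ins, no member passed over the course in either arm or in any single step given below. Of the 14534 genes, 74 passed over the course in Tet minus and 50 in Tet plus under that scaling, and at most 3 in any step. Nothing is read from the absence of members there.

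By group means the members were highest at different times. CDKN1A was highest at 3 h in Tet minus (mean 282 CPM) and at 0 h in Tet plus (406 CPM), and lowest at 8 h (121 CPM) and 6 h (202 CPM). CDKN1B was highest at 8 h (128 and 143 CPM) and lowest at 14 h (67.1 and 75.8 CPM) in both arms. CDKN2C had its highest mean at 6 h in Tet minus (92.2 CPM) and at 8 h in Tet plus (111 CPM), with its lowest mean at 14 h in each (45.4 and 54.8 CPM). CDKN2D followed the same order with a wider range, from 13.3 CPM at 6 h to 3.25 CPM at 14 h in Tet minus, 4.08-fold. CCNG2 was highest at 0 h in Tet minus (19.8 CPM) and at 6 h in Tet plus (43.3 CPM), and lowest at 10 h in both (10.5 and 26.4 CPM). Each mean is of 2 libraries, and lanes change between 6 and 8 h. CDKN2C in Tet plus held 110.7 and 104.5 CPM at 3 h and 118 and 103 CPM at 8 h. CDKN1B in Tet minus held 121 and 133 CPM at 6 h and 125 and 132 CPM at 8 h. Libraries of those times overlapped, so the highest time is not resolved between them. The same held for CDKN1A at 0 and 3 h in both arms and for CDKN1B at 8 and 10 h in Tet plus. It held for CDKN2C and CDKN2D at 3 and 6 h in Tet minus. For CCNG2 it held at 0 and 6 h in Tet minus and at 6 and 8 h in Tet plus. Different highest times in the arms are therefore not resolved either. Some lowest times overlapped another time too, such as those of CDKN1A and CCNG2. None of the 8 had an arm difference that varied over 0 to 14 h past the threshold by edgeR, and DESeq2 called none of those for which it gave an adjusted p, which left out CDKN2A. Without adjustment CDKN1B alone of the 8 was under 0.05 by edgeR, as were 265 of the 14534 genes. After adjustment 2 genes, 0.0138%, were called. With the replicate number as a block, 4 members and 713 of the 14534 genes were under 0.05 without adjustment, and 22 genes were called after it. With a block within each time, 7 members and 1116 genes were under 0.05 without adjustment, and 70 genes were called after it. None of the 8 passed after adjustment in either fit.

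Lane numbers change along the course, so single steps were compared within a lane set. From 0 to 6 h in Tet minus, CDKN1A fell by 0.90 on the log2 scale (SE 0.181, adjusted p = 0.00373), from 265 and 247 to 145 and 129.6 CPM. CDKN1B rose by 0.73 (SE 0.129, adjusted p = 0.000779), from 76.2 and 76.7 to 121 and 133 CPM. CDKN2C rose by 0.49 (SE 0.131, adjusted p = 0.0434), from 66.9 and 64.5 to 97.9 and 86.4 CPM. These are 3 of 8 members where 2.35% of all genes were called. The step of CDKN1A in Tet minus missed the threshold without 0 h replicate 1 (adjusted p = 0.0550) or 6 h replicate 2 (0.0812), and that of CDKN2C without any 1 of the 4 libraries, 0 h replicate 1 (0.200), 0 h replicate 2 (0.284), 6 h replicate 1 (0.376) or 6 h replicate 2 (0.0835). The CDKN2C step also missed it with no filter on low counts (adjusted p = 0.103) and with the libraries of 0 to 14 h fitted alone (0.102). In Tet plus cells only CDKN1A passed, 1 of 8 members where 2.5% of genes did. It fell by 1.00 (SE 0.181, adjusted p = 0.00138), from 459 and 352 to 199 and 206 CPM, and missed the threshold without 0 h replicate 1 (adjusted p = 0.0781). With the replicate block CDKN2D was added in Tet minus (0.84, adjusted p = 0.0365) and CDKN1C in Tet plus (-0.57, adjusted p = 0.0430), where 6.31% and 8.59% of genes passed.

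From 8 to 12 h, CDKN1B and CDKN2C went down again in Tet minus cells, 2 of 8 members where 0.833% of genes were called. CDKN1B fell by 0.78 (SE 0.129, adjusted p = 0.000746), from 125 and 132 to 77.2 and 72.3 CPM. CDKN2C fell by 0.72 (SE 0.132, adjusted p = 0.00260), from 83.4 and 84.9 to 54.1 and 48.0 CPM, and missed the threshold without replicate 2 at 8 h (adjusted p = 0.0520) or 12 h (0.125). In Tet plus cells CDKN2C fell by 0.63 (SE 0.131, adjusted p = 0.0324), from 118 and 103 to 72.2 and 70.8 CPM, 1 of 8 members where 0.22% of genes were called. Without any 1 of the 4 libraries, 8 h replicate 1 (adjusted p = 0.289), 8 h replicate 2 (0.0725), 12 h replicate 1 (0.282) or 12 h replicate 2 (0.297), that call was lost, as it was with the libraries of 0 to 14 h alone (adjusted p = 0.119). The replicate block added CDKN2D in Tet minus (-1.16, adjusted p = 0.0108), and in Tet plus it added CDKN2D (-1.07, adjusted p = 0.0221) and CDKN1B (-0.51, adjusted p = 0.0333), where 1.93% and 0.812% of genes passed.

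From 16 to 22 h, CDKN1B rose by 0.73 in Tet minus cells (SE 0.129, adjusted p = 0.00160), from 62.1 and 70.6 to 101 and 119 CPM. It was 1 of 8 members called where 1.64% of genes were, and it missed the threshold without 16 h replicate 1 (adjusted p = 0.127) or 22 h replicate 2 (0.101). With the replicate block CDKN2C (0.49, adjusted p = 0.0109) and CCNG2 (0.64, adjusted p = 0.0160) also passed, where 12.3% of genes did, and DESeq2 added the same 2 genes (0.0282 for each). In Tet plus cells none of the 8 passed by edgeR, where 7.24% of genes did, and DESeq2 also called none. Without adjustment 2 of the 8 members were under 0.05 there, CDKN1A (0.46, SE 0.180) and CCNG1 (-0.39, SE 0.185), as were 3290 of the 14534 genes. That member count is near the share of all genes and is no result about them. The block called CDKN1A (0.46, adjusted p = 0.0387), CDKN1C (0.54, adjusted p = 0.0311) and CCNG1 (-0.38, adjusted p = 0.0327), where 18.3% of genes passed.

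**Figure D4:**
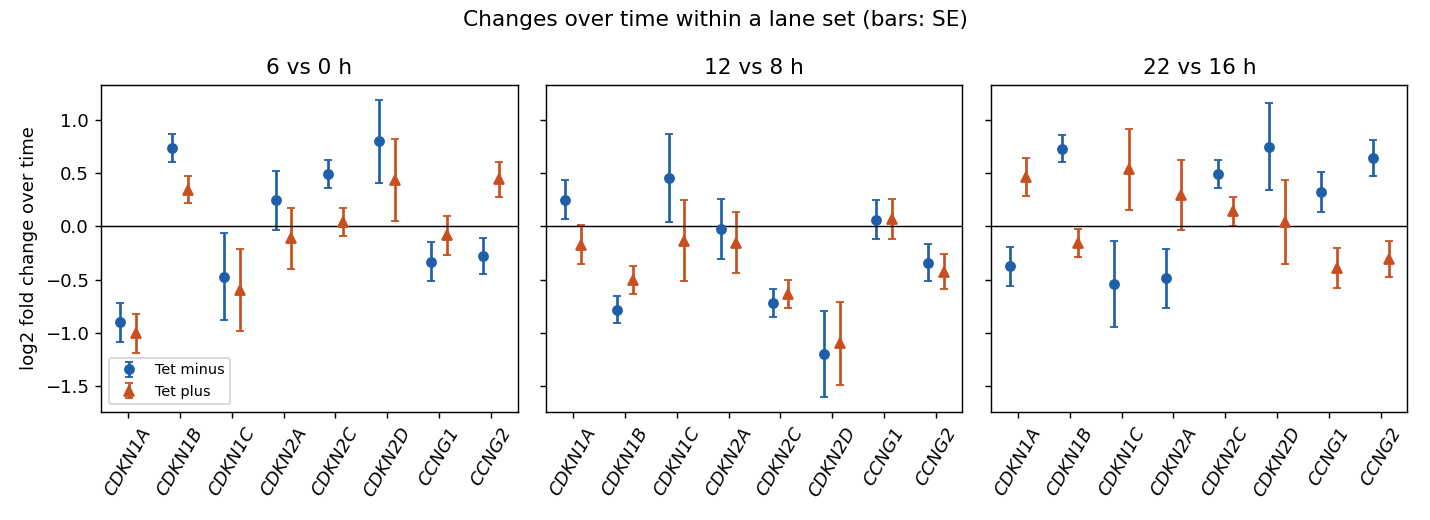
Change over time within a lane set (log2 fold change, y axis) of the 8 measured genes from 0 to 6 h, 8 to 12 h and 16 to 22 h in Tet minus (circles) and Tet plus (triangles), with bars of 1 SE. CDKN1A drops by 0.90 and 1.00 from 0 to 6 h in the arms, and CDKN1B in Tet minus goes up by 0.73, down by 0.78 and up by 0.73.

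The change from 16 to 22 h was also compared between the arms, a comparison added after seeing the data that stays within each arm's lanes. It differed for CDKN1A (0.84 more in Tet plus, SE 0.254, adjusted p = 0.0341), CDKN1B (-0.89, SE 0.182, adjusted p = 0.00330) and CCNG2 (-0.94, SE 0.239, adjusted p = 0.0135), 3 of 8 members where 11.1% of genes were called. For CDKN1A the Tet plus pair went from 222 and 216 to 305 and 300.1 CPM and the Tet minus pair from 216 and 209 to 170.5 and 158 CPM. For CCNG2 the Tet plus pair went from 46.3 and 52.9 to 39.9 and 40.5 CPM and the Tet minus pair from 12.9 and 12.0 to 16.8 and 22.0 CPM. The call for CDKN1A was lost without 7 of the 8 libraries in turn (adjusted p at most 0.176, for replicate 2 of Tet minus at 22 h), the exception being replicate 1 of that group. That for CCNG2 was lost without replicate 1 of Tet minus at 16 h (0.0539), replicate 2 of Tet minus at 22 h (0.143), or replicate 2 of Tet plus at 16 h (0.0842) or 22 h (0.0546). The replicate block added CDKN1C (1.10, adjusted p = 0.00348) and CCNG1 (-0.71, adjusted p = 0.00473), where 27.4% of genes passed. For MYCN the change differed by 0.56 (SE 0.172, adjusted p = 0.0367), and its part in these differences was not tested.

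The kinases and cyclins that the inhibitors bind were mostly lower in Tet plus. Of 12 measured CDK, cyclin and PCNA genes, 8 fell and 1 rose at 0 to 14 h, with a median of -0.26 against 0.01 for all genes, where 21.3% of all genes fell and 20.1% rose. At 16 to 22 h 9 fell and 1 rose, where 26.8% of all genes fell and 26.3% rose. At 0 to 14 h CDK4, the partner of the D-type cyclins, fell by 0.73 (SE 0.0478). CCND3, a D-type cyclin, fell by 0.58 (SE 0.0618), and PCNA, the replication clamp that p21 also binds, fell by 0.34 (SE 0.0602). Of 13 genes for turnover of the inhibitor proteins, 1 rose and 3 fell at 0 to 14 h (median -0.09), and 3 rose and 7 fell late. DTL, the substrate receptor of the ligase that targets p21 in S phase, fell by 0.49 (SE 0.0730). CKS1B, a cofactor for the breakdown of p27, fell by 0.14 (SE 0.0464), and CUL4B, a scaffold of such ligases, rose by 0.33 (SE 0.0605).

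Genes that share regulators with the members were counted next. For scale, 20.1% of all genes rose and 21.3% fell at 0 to 14 h, and 26.3% rose and 26.8% fell late. List counts near these shares are no result about a list. Of 20 transcriptional regulators of the inhibitors, 5 rose and 1 fell at 0 to 14 h (median 0.01), and 4 rose and 5 fell late. FOXO4 rose by 0.61 (SE 0.0974) and RB1, the pocket protein downstream of CDK4, by 0.27 (SE 0.0571), while TFAP4, a repressor of CDKN1A that MYC induces, fell by 0.58 (SE 0.0559). Of 21 measured other targets of p53, 7 rose and 1 fell at 0 to 14 h (median 0.19), and 11 rose and 2 fell late. TP53INP1 rose by 1.40 (SE 0.0938) and BTG2, an antiproliferative factor, by 0.62 (SE 0.0879), while AEN, a nuclease, fell by 0.43 (SE 0.0535). Of 14 measured other targets of FOXO factors, 8 rose and 3 fell at 0 to 14 h (median 0.34), and 7 rose and none fell late. PIK3IP1, a negative regulator of PI3 kinase, rose by 1.25 (SE 0.125), SESN3 by 0.84 (SE 0.0606) and PINK1, a mitochondrial kinase, by 0.76 (SE 0.0715). Of 10 binding partners of the G cyclins, 2 rose and none fell at 0 to 14 h (median 0.03), namely the PP2A subunit genes PPP2R5C (0.32, SE 0.0429) and PPP2R5B (0.56, SE 0.111), and 3 rose and 4 fell late. The lists were written with earlier results of these data known, and the genes named from them had the smallest p at 0 to 14 h. Counts of the lists and values of their named genes are therefore descriptions, and no p is given for those genes.

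**Figure D5:**
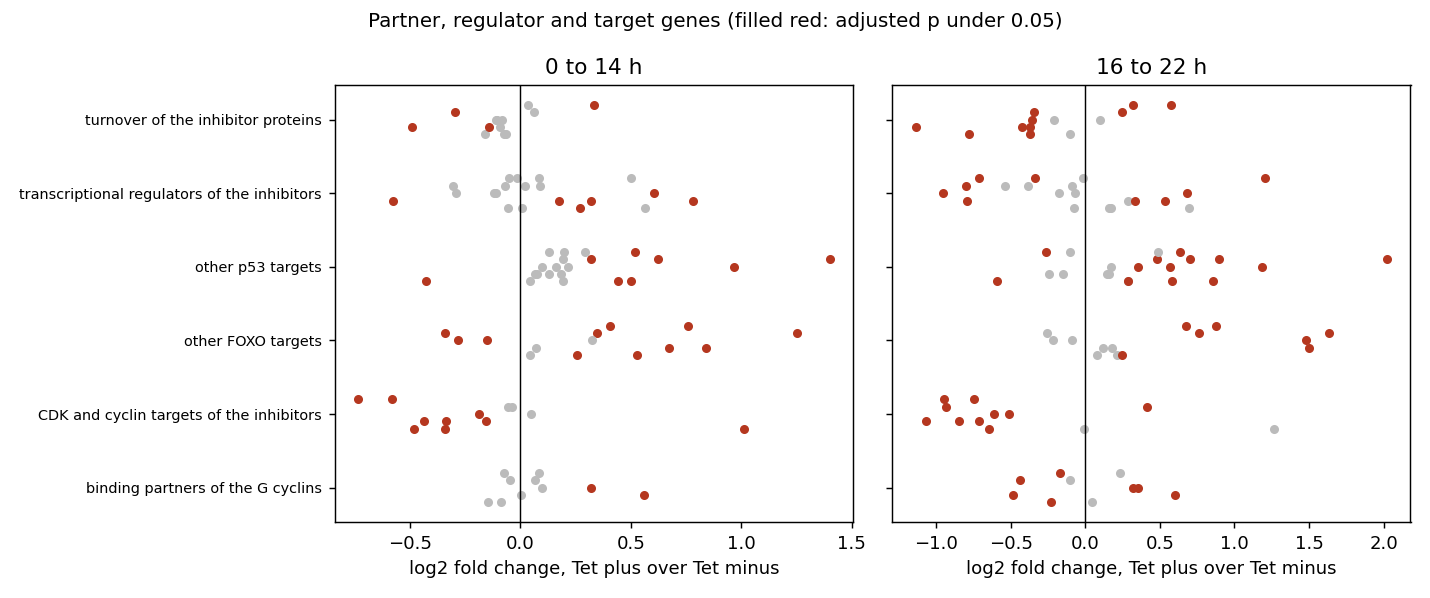
Difference between the arms (log2 fold change, Tet plus over Tet minus, x axis) at 0 to 14 h and 16 to 22 h for each measured gene of the 6 partner, regulator and target lists, filled red where the adjusted p is under 0.05. In the row of CDKs and cyclins 8 of 12 genes lie called below 0 at 0 to 14 h, where 21.3% of all genes do. In the row of FOXO targets 8 of 14 lie called above 0, where 20.1% of all genes do.

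Likeness to other genes was measured as Pearson's r of mean log2 CPM over the 14 groups of 0 to 14 h, which share libraries, lanes and depth, among about 10090 genes of sufficient level. The closest gene to CDKN1A was FOXO3 (r = 0.97), to CDKN1B MXD3 (0.97), to CDKN1C MCF2L (0.98), to CDKN2A ALX4 (0.95), to CDKN2C TRIOBP (0.93), to CDKN2D GPRASP1 (0.96), to CCNG1 PCMT1 (0.97) and to CCNG2 DYNC1LI2 (0.98). The next 2 were IGFBP5 and RASSF4 for CDKN1A, CKAP2L and RP2 for CDKN1B, RUNDC3A and DYRK1B for CDKN1C, ADPGK and ADAM15 for CDKN2A, GTPBP2 and MYRIP for CDKN2C, UAP1L1 and CCDC130 for CDKN2D, TMEM237 and TMSB15B for CCNG1, and CALCOCO1 and KAT2B for CCNG2. Among the members, CDKN2C and CDKN2D were closest to each other (r = 0.92 over 14 groups). CDKN1C was near CCNG2 (0.88) and CDKN1A (0.87), CDKN1B was near CDKN2C (0.83), and CDKN2A ran opposite to CCNG1 (-0.78). The 14 groups hold both arms, so r includes the arm difference at 0 to 14 h on which some members were selected. Each closest gene is the best of about 10090 over 14 values. These values of r are a description, and what lies behind them was not tested.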

How the data were processed

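The values deposited by the authors for the 44 libraries are raw read counts per gene in whole numbers. Reads were aligned to hg19 by a pipeline that names TopHat2 2.0.5 and HTSeq, per the submitters' processing notes. What annotation, strand setting and HTSeq version were used is not given in the sources used here, and directional libraries were made per the labels' protocols. The 92 ERCC rows were kept out of library sizes and tests, and 3929 of the 23367 gene rows had 0 counts in all libraries. Gene counts per library ranged from 10.91 to 25.31 M (mega), and counting error grows as a gene's count falls, so CDKN2A and CDKN2B are the least precise members.

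Counts were fitted in R 4.3.3 with edgeR 4.0.16, using filterByExpr on the groups, TMM factors and the quasi-likelihood functions glmQLFit and glmQLFTest. The model had 1 mean per group for 22 groups, with 22 residual degrees of freedom. Of the genes 14534 passed the filter, over which Benjamini-Hochberg values were computed, with a threshold of 0.05. An SE is the size of the log2 fold change over the root of F. CPM values use TMM library sizes, and log2 CPM a prior count of 2. The arms were compared over the 7 times from 0 to 14 h and the 4 times from 16 to 22 h. Libraries of different times enter as independent, although they share replicate numbers.

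The members and all lists were chosen with earlier results of these data known. Named genes are the 9 members, MYCN, up to 3 genes of each list with the smallest p at 0 to 14 h among those past the threshold, and for each tested member the 3 genes with the highest r at mean log2 CPM of at least 3. CCNE2 and CCNB1 orient the cycle. Same-numbered libraries of the arms deviated together at every time (lowest r 0.385, median 0.785 at 0 to 14 h and lowest 0.271, median 0.537 at 16 to 22 h, over 10176 genes), so the numbers were taken to pair the arms and a replicate block was fitted as well. Whether the numbers also pair the times within an arm was not examined by this check. Over the 22 groups of both arms, replicate 1 lay above replicate 2 in 22 for CDKN1C and in 4 for CCNG1. The other members lay between. No library was a copy of another, since chi-square per gene between replicates was 8.48 to 48.8. Alternatives were RLE size factors, DESeq2 1.42.0, no filter, ERCC scaling, the libraries of a period alone, and leaving out each library. The steps were also run on simulated counts, drawn independently for each library without replicate pairing or lanes. That run therefore does not test them under the design of these data.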

Additional observations from a re-analysis of the deposited data

Results flagged for a closer look

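For 3 genes the difference between the arms was not of the same size in the 2 periods. CCNG2 was higher in Tet plus by 0.42 more at 16 to 22 h than at 0 to 14 h (SE 0.105). CDKN1C was higher by 0.85 more (SE 0.247). CDKN2C went the other way, at -0.65 (SE 0.0827), from higher in Tet plus to lower. Under ERCC scaling CDKN2C stood at 3.63, below the median of 4.32 over all genes in this comparison. The 3 genes were picked out by a model term that contains the difference at 0 to 14 h, on which some members were selected, so the values are a description and no p is given. At 16 to 22 h arm and the change of lanes and title form cannot be told apart.

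The change from 16 to 22 h differed between the arms for 3 genes, by a test of the difference itself. In Tet plus minus Tet minus it was -0.94 for CCNG2 (SE 0.239, adjusted p = 0.0135), 0.84 for CDKN1A (SE 0.254, adjusted p = 0.0341) and -0.89 for CDKN1B (SE 0.182, adjusted p = 0.00330). The call for CDKN1A was lost without 7 of the 8 libraries in turn and that for CCNG2 without 4 of them. None of the 3 passed under ERCC scaling, where 0 of the 14534 genes did. CCNB1, the mitotic cyclin, averaged 168 CPM at 16 h and 325 CPM at 22 h in Tet minus, and 219 and 119.8 CPM in Tet plus. MYCN differed in this change by 0.56 (SE 0.172, adjusted p = 0.0367). The part of these 2 genes in the differences was not tested.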

How the results depend on the processing

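RLE size factors and the absence of a filter moved no count of members called by over 1.5 times. ERCC scaling left 0 members called over the course in Tet minus and in Tet plus, in the steps from 0 to 6 h and 8 to 12 h in either arm, from 16 to 22 h in Tet minus, and in the difference of that step between the arms. Of the 14534 genes it called 74 and 50 over the courses, at most 3 in any of these steps, and 0 for that difference. For the change of the arm difference between the periods ERCC scaling called 8 members and 14464 of the 14534 genes, with all genes at a median of 4.32. That comparison is a description here, since some members were selected on 1 of its terms. In it the scaling moved CDKN1A to 4.01, CDKN1B to 4.09, CDKN2A to 3.93 and CDKN2C to 3.63. At 16 to 22 h the scaling moved CDKN2A to 3.65 and CDKN2C to 4.13, with all genes at a median of 4.43. At 0 to 14 h each of the 8 members kept its sign under ERCC scaling (median of all genes 0.10).

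The replicate block, taken from the pairing of replicate numbers, called 2 members from 0 to 6 h and 3 from 8 to 12 h in Tet plus, 3 from 16 to 22 h in each arm, 5 for the change between the periods (6 with a block within each time) and 5 for the difference of the late step between the arms. It changed the count of members called by over 1.5 times in no other comparison. Fitting the libraries of a period alone called 0 from 8 to 12 h in Tet plus, 3 from 16 to 22 h in Tet minus and 1 in Tet plus, and DESeq2 called 3 from 16 to 22 h in Tet minus.

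Leaving out each library in turn gave 7 members higher at 0 to 14 h and 7 called at 16 to 22 h every time. The range was 5 to 5 for the course in Tet minus, 3 to 4 in Tet plus, and 0 to 0 for the arm difference by time. It was 1 to 2 from 0 to 6 h in Tet minus and 0 to 1 in Tet plus, 1 to 2 and 0 to 0 from 8 to 12 h, and 0 to 2 and 0 to 0 from 16 to 22 h. It was 3 to 4 for the change between the periods and 1 to 3 for the late step between the arms. For values so changed the cause was not tested. CDKN2A, at 15 to 84 counts per library, and CDKN2B, at 0 to 15, are limited by depth. Of 1408 single-gene values with a library left out, 29 lost and 10 gained a call, and none changed sign as a call.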
